A study of Mus musculus with 6 samples.

Results

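The apical-basal polarity machinery was followed here through 10 genes of the Par, Crumbs and Scribble complexes, chosen by symbol: Pard3, Pard6b, Pard6g, Prkci, Prkcz, Crb3, Patj, Scrib, Dlg1 and Llgl2. All 10 were found among the 41214 genes of the count files, and all 10 were abundant enough to be tested. Expression was compared between a control group (shCTL, 3 libraries) carrying a control short hairpin RNA, whose genotype is labelled WT, and a knockdown group (shCdGAP, 3 libraries) carrying a hairpin against CdGAP, labelled CdGAP KD. Both groups are mouse mammary tumour explant cells that derive from NMuMG, a line of normal mammary gland epithelium, and that express the receptor ErbB2. CdGAP, the product of Arhgap31, turns Cdc42 and Rac1 to their inactive form, and the series title asks how it bears on E-cadherin transcription together with the repressor Zeb2. Separate cultures, the number of hairpins or clones and the animals behind the explants are not given in the labels for either group, so the spread behind every p-value may be technical.

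Epithelial cells keep a free apical surface apart from the sides that touch neighbours and matrix, and 3 protein complexes hold that boundary. The Par complex joins the scaffold Par3 (Pard3), the adaptor Par6 (Pard6 genes) and an atypical protein kinase C (Prkci or Prkcz), and Par6 is a direct effector of Cdc42. The Crumbs complex joins the apical membrane protein Crumbs (Crb3 in most epithelia) to the scaffolds Pals1 and Patj. The basolateral Scribble complex holds Scrib, Dlg1 and Lgl (Llgl2), and atypical PKC phosphorylates Lgl to keep it off the apical side. In mammary epithelium these proteins are needed to form a lumen, and repressors of E-cadherin, Zeb proteins among them, are known to act on Crb3 and Llgl2 as well.

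Arhgap31, the targeted gene, was at 13.2, 14.4 and 15.1 CPM in shCTL replicates 1 to 3 and at 1.70, 9.16 and 8.21 CPM in shCdGAP replicates 1 to 3, where CPM is the count per 1000000 fragments of the scaled library. Every knockdown library lay below every control, and shCdGAP replicate 1 lay far below the other two. Its log2 fold change was −1.16 ± 0.55 (SE) and was not called by edgeR's quasi-likelihood test (adjusted p = 0.190), whereas without shCdGAP replicate 1 it was smaller, −0.71, and was called (adjusted p = 0.00407). Library totals ran from 19176540 to 26824249 fragments. The first principal component held 72.0% of the variance and parted the groups, and shCdGAP replicate 1 stood apart from its replicates on the next (21.7%), so results are also given without it. Of 10 epithelial markers 7 were tested, and of these 2 rose, 2 fell and 3 were not called. Of all tested genes, 10.4% were called higher and 11.4% lower. Cdh1, which encodes E-cadherin, rose from 232 ± 51.5 to 768 ± 85.3 CPM (SD, n = 3, edgeR adjusted p = 0.00193), and the keratin gene Krt7 rose from 1.86 ± 0.320 to 5.57 ± 1.81 CPM (edgeR adjusted p = 0.0160). The Krt7 call was lost without any shCTL library or shCdGAP replicate 2 (adjusted p up to 0.0770). Epcam, with 92 fragments in shCTL and 0 in shCdGAP, and the basal keratin gene Krt5, with 100 and 2, fell. The keratin gene Krt8 was abundant and not called (2682 to 5372 CPM over the 6 libraries), but passed as higher without shCdGAP replicate 1 (log2 fold change 0.56, adjusted p = 0.0368), and Cldn7 had no count in any library. The summed level of 17 markers of stroma, vessels, blood cells and fat was 22.2 to 29.8 CPM in shCTL and 6.86 to 18.7 CPM in shCdGAP. Cd68 and Pdgfra gave most of it, and Lum, Thy1, Adgre1 and Plin1 had no count at all. Their part in the results below was not tested.

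Among the 10 polarity genes, Crb3, Patj, Llgl2 and Prkci rose in shCdGAP, Pard6g fell, and Pard3, Pard6b, Prkcz, Scrib and Dlg1 were not called. Of all 13483 tested genes, 10.4% were called higher and 11.4% lower, at an adjusted p under 0.05. The 10 genes and the lists below were chosen with earlier results of these data known, so counts beside these shares only describe. The median log2 fold change was 0.30 over the 10 genes and 0.01 over all tested genes. That 0.30 is the midpoint between Pard3 (−0.01) and Prkci (0.61), and none of the 10 lay between them. Values of shCdGAP and shCTL did not overlap for 6 of the 10, against 44.1% of all tested genes. Without shCdGAP replicate 1, 5 of the 10 rose and 2 fell, and the shares of all genes were then 19.9% and 21.9%. In bulk RNA such as this, fewer cells that express a gene and less RNA in each cell cannot be told apart.

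**Figure D1:**
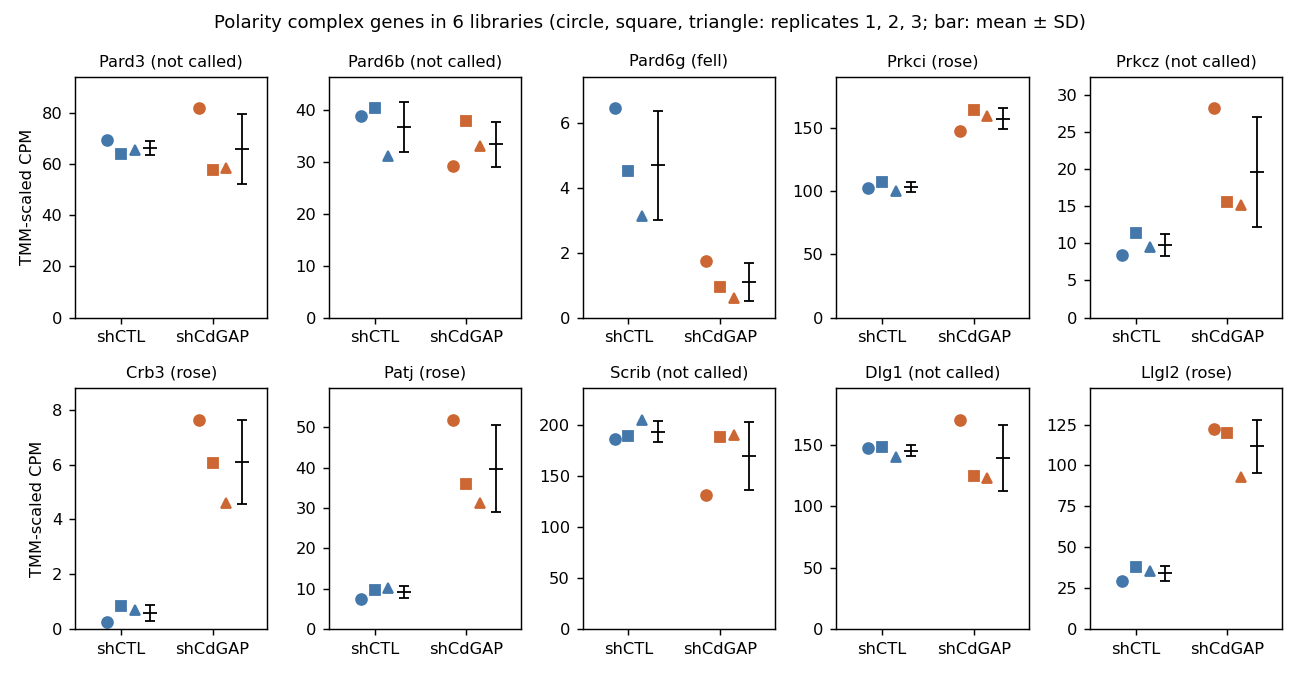
Level of each polarity gene in each library (y axis, TMM-scaled CPM from 0), with circles, squares and triangles for replicates 1, 2 and 3 of shCTL (blue) and shCdGAP (orange) and bars for mean ± SD. Crb3, Patj, Llgl2 and Prkci lie higher in all 3 shCdGAP libraries and Pard6g lower, while the groups overlap for Pard3, Pard6b, Scrib and Dlg1.

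The promoter sequences are shown first because the series asks about Zeb2, whose family binds E-boxes of the form CAGGTG. RefSeq promoter windows (GRCm38.p6, from 250 bases before to 50 after an annotated transcription start) matched 7 of the 10 genes by symbol, and Pard6g, Scrib and Llgl2 had no entry. Each window was searched for CAGGTG, which reads CACCTG on the other strand, and no other motif was searched. The motif was added after expression values were seen. Of 32851 promoter windows of this length in the mouse genome, 20.2% held at least 1 such E-box, 2.88% held 2 or more and 0.365% held 3 or more. The shares with at least 1 were 19.9% for windows of genes called higher, 19.6% for genes called lower and 17.2% for tested genes that were not called. In the same order, 3.65%, 3.01% and 2.04% held 2 or more, and 0.447%, 0.402% and 0.196% held 3 or more. The windows below run 5′ to 3′ on the gene's own strand and stop 30 bases after the start, with each E-box in capitals. They show the 2 risen genes that carry E-boxes (Crb3 and Patj), a risen gene with none (Prkci), and 2 uncalled genes that carry them at their first start (Prkcz and Pard6b).
Crb3, chr17:57061981-57062260, plus strand: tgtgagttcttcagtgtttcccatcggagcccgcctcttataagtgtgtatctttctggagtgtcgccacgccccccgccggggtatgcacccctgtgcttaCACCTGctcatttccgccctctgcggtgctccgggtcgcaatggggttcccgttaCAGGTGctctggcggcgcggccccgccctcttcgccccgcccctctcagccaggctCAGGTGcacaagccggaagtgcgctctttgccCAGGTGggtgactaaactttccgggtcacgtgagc
Patj, chr4:98395576-98395855, plus strand: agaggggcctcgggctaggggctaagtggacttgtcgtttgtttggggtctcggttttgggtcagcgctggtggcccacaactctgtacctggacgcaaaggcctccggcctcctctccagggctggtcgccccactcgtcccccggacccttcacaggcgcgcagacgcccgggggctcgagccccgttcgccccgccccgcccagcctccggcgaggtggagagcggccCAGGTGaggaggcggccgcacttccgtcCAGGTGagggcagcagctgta
Prkci, chr3:30995521-30995800, plus strand: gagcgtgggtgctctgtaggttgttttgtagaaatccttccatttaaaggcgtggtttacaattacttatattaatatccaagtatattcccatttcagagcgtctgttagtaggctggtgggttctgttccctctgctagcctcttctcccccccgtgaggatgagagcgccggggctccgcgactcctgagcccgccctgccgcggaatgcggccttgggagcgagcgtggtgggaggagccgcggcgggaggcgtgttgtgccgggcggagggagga
Prkcz, chr4:155361399-155361678, minus strand: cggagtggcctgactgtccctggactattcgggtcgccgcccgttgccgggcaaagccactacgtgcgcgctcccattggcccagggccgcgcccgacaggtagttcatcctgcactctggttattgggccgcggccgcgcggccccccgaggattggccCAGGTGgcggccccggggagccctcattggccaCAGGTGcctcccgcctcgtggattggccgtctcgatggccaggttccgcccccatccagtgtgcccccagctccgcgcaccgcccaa
Pard6b, chr2:168080754-168081033, plus strand: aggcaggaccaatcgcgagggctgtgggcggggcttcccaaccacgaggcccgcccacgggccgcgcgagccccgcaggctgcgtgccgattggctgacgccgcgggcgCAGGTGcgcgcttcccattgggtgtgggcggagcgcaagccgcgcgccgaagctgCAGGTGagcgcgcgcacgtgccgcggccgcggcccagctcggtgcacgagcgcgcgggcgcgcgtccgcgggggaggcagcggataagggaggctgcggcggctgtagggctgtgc
The Crb3 window held 4 E-boxes, which begin at positions −148, −93, −37 and −5 counted from the start, and the window of its other annotated start overlaps this one and held the same 4. The first Patj window held 3, beginning at −19, 10 and 38, of which the last lies past the bases shown, and the other 2 Patj windows held none. Prkcz had 2 at its first start (−90 and −57), none at its next and 1 at the last (−153). Pard6b had 2 in its single window (−141 and −86). Prkci had none in its single window. Pard3 had none at its first start and 3 at its other start, and Dlg1 had 1 over its 4 windows. The E-boxes are letters in these windows and not measured binding sites. Of the 3 risen genes with a window, Crb3 and Patj held E-boxes and Prkci did not. All 4 uncalled genes with a window (Pard3, Pard6b, Prkcz and Dlg1) held at least 1 at some start. These genes had 1 to 4 windows each, whereas the shares above are per window, so the gene counts cannot be read against them.

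Of the Crumbs complex, Crb3 and Patj both rose. Crb3 (ENSMUSG00000044279, GRCm38 chromosome 17, 57059105 to 57065918, plus strand) encodes the small Crumbs protein of epithelia, whose tail recruits the rest of the complex. It had 5, 23 and 18 fragments in shCTL and 171, 134 and 116 in shCdGAP, or 0.258, 0.837 and 0.677 CPM against 7.64, 6.08 and 4.60 CPM. The gene was close to silent in every control and clearly expressed in every knockdown library, and the groups were far apart. Its log2 fold change was 3.32 ± 0.424 (SE), or 9.99-fold (edgeR adjusted p = 0.00317), and 3.11 without shCdGAP replicate 1 (adjusted p = 0.000316). With 46 fragments over the 3 controls, the size of this fold rests on few reads.

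Patj (ENSMUSG00000061859, chromosome 4, 98395785 to 98719603, plus strand) encodes the scaffold of many PDZ domains that ties Crumbs and Pals1 to tight junctions. It was at 7.33, 9.72 and 10.2 CPM in shCTL and at 51.8, 35.8 and 31.3 CPM in shCdGAP. All knockdown libraries were above all controls, with shCdGAP replicate 1 the highest. The log2 fold change was 2.13 ± 0.243, or 4.37-fold (edgeR adjusted p = 0.00206), and 1.89 without that library (adjusted p = 6.4e-05). Mpdz, which encodes the closest paralog of Patj, went the other way, from 39.0 ± 3.16 to 21.6 ± 3.64 CPM (SD, n = 3, log2 fold change −0.85, edgeR adjusted p = 0.0131). The Mpdz call was lost without shCTL replicate 1 (adjusted p = 0.0630) or 2 (adjusted p = 0.0573). Crb2, a larger Crumbs gene, rose from 2.89, 3.86 and 4.82 CPM to 14.5, 28.8 and 24.9 CPM (log2 fold change 2.55 ± 0.324, edgeR adjusted p = 0.00309). Mpp5, which encodes Pals1, was at 64.1 ± 4.54 CPM in shCTL and 74.4 ± 6.40 CPM in shCdGAP (log2 fold change 0.21 ± 0.113, edgeR adjusted p = 0.235). It passed without shCdGAP replicate 1 (log2 fold change 0.29, adjusted p = 0.0400).

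Of the Scribble complex, Llgl2 rose and Scrib and Dlg1 were not called. Llgl2 (ENSMUSG00000020782, chromosome 11, 115824049 to 115855780, plus strand) encodes an Lgl protein, a substrate of atypical PKC that marks the basolateral side. It was at 29.1, 38.1 and 35.3 CPM in shCTL and at 122, 120 and 93.1 CPM in shCdGAP. The lowest knockdown library was well above the highest control. The log2 fold change was 1.71 ± 0.162, or 3.27-fold (edgeR adjusted p = 0.0011), and 1.65 without shCdGAP replicate 1 (adjusted p = 8.67e-05).

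Scrib (ENSMUSG00000022568, chromosome 15, 76047158 to 76069784, minus strand) encodes the LAP scaffold that names the complex. It was at 186, 190 and 206 CPM in shCTL and at 131, 189 and 190 CPM in shCdGAP. The groups overlapped, and shCdGAP replicate 1 was the single low library. The log2 fold change of −0.19 ± 0.163 did not pass (edgeR adjusted p = 0.465) and was −0.02 without that library. Dlg1 (ENSMUSG00000022770, chromosome 16, 31663443 to 31875129, plus strand), a MAGUK scaffold, was at 148, 148 and 140 CPM against 170, 124 and 123 CPM. Here shCdGAP replicate 1 lay above the controls and the other two below them. Its log2 fold change of −0.06 ± 0.15 did not pass (edgeR adjusted p = 0.812), whereas without shCdGAP replicate 1 it was −0.22 and passed (adjusted p = 0.0488).

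Of the Par complex, the kinase gene Prkci rose, the adaptor gene Pard6g fell and the scaffold gene Pard3 stayed within the spread of the replicates. Prkci (ENSMUSG00000037643, chromosome 3, 30995747 to 31052959, plus strand) encodes PKC iota, the main atypical PKC of most epithelia. Its levels were 103, 107 and 100 CPM in shCTL and 148, 164 and 160 CPM in shCdGAP. Replicates were tight on both sides and did not overlap. The log2 fold change was 0.61 ± 0.0938, or 1.52-fold (edgeR adjusted p = 0.00618), and 0.66 without shCdGAP replicate 1 (adjusted p = 0.000362). Prkcz (ENSMUSG00000029053, chromosome 4, 155260129 to 155361361, minus strand), which encodes the other atypical PKC, zeta, was at 8.46, 11.4 and 9.52 CPM against 28.2, 15.6 and 15.2 CPM. All 3 knockdown libraries were higher, shCdGAP replicate 1 by far the most. Its log2 fold change of 1.00 ± 0.285 missed the threshold (edgeR adjusted p = 0.0501). Without shCdGAP replicate 1 the value was smaller, 0.66, and passed (adjusted p = 0.00917).

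Pard6g (ENSMUSG00000056214, chromosome 18) encodes Par6 gamma, and it was the gene of the 10 that fell. It was at 6.45, 4.51 and 3.12 CPM in shCTL and at 1.74, 0.952 and 0.595 CPM in shCdGAP, or 125, 124 and 83 fragments against 39, 21 and 15. The groups did not overlap, and both varied widely for their level. Its log2 fold change was −2.09 ± 0.462, or 4.27-fold lower (edgeR adjusted p = 0.0221), and −2.58 without shCdGAP replicate 1 (adjusted p = 0.00154). The call was lost without shCTL replicate 1 (adjusted p = 0.0659), shCTL replicate 2 (adjusted p = 0.0740) or shCdGAP replicate 2 (adjusted p = 0.0843). Pard6b (ENSMUSG00000044641, chromosome 2, 168081004 to 168101203, plus strand), the Par6 gene with the highest level here, was at 38.8, 40.3 and 31.2 CPM against 29.3, 37.9 and 33.0 CPM. These groups overlapped, and the log2 fold change of −0.14 ± 0.157 did not pass (edgeR adjusted p = 0.585). Pard6a, the third Par6 gene, rose from 3.57 ± 0.711 to 6.25 ± 0.463 CPM (n = 3, log2 fold change 0.81, edgeR adjusted p = 0.0355), a call lost without shCTL replicate 2 or 3 or shCdGAP replicate 2 or 3 (adjusted p up to 0.156).

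Pard3 (ENSMUSG00000025812, chromosome 8, 127063893 to 127612286, plus strand) encodes Par3, the scaffold that places the complex at junctions. It was at 69.3, 64.0 and 65.5 CPM in shCTL and at 81.6, 57.5 and 58.6 CPM in shCdGAP. As with Dlg1, shCdGAP replicate 1 was above all controls and the other two below them. The log2 fold change was −0.01 ± 0.159 (edgeR adjusted p = 0.978), and −0.18 without that library (adjusted p = 0.131). Its paralog Pard3b rose from 3.78 ± 0.486 to 9.99 ± 1.47 CPM (n = 3, 2.63-fold, edgeR adjusted p = 0.0043).

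**Figure D2:**
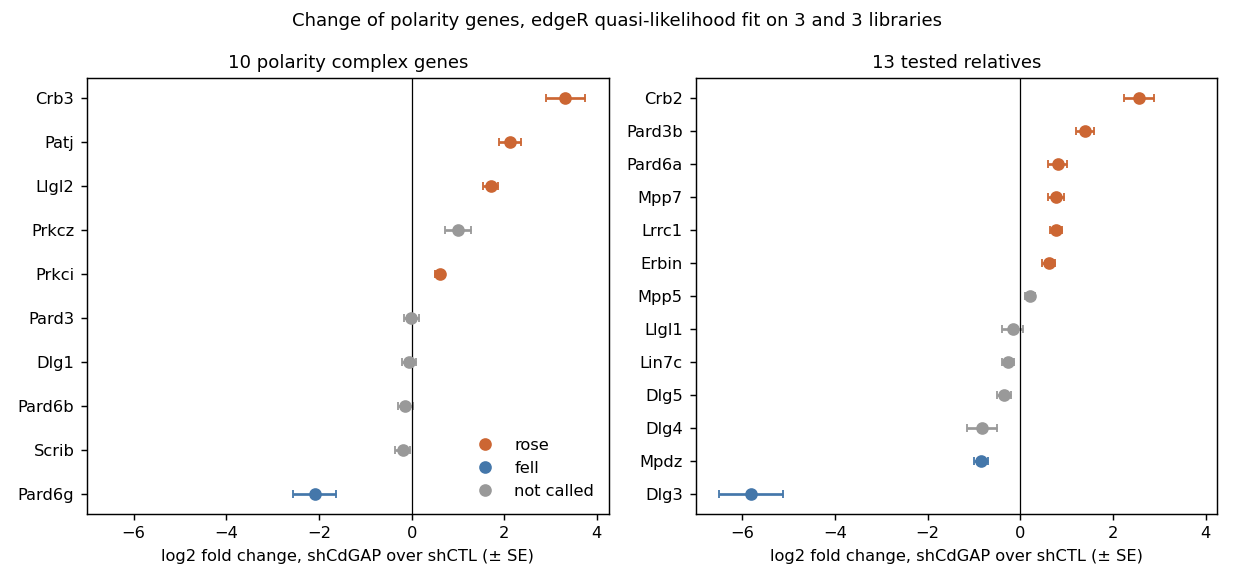
Log2 fold change of shCdGAP over shCTL with its SE (x axis) for the 10 polarity genes (left) and the 13 tested relatives (right), with orange for rose, blue for fell and grey for not called. Crb3 at 3.32 and Patj at 2.13 lie furthest right on the left panel and Pard6g at −2.09 furthest left, while Pard3, Dlg1, Pard6b and Scrib lie near 0.

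The makeup of families with several genes was compared as shares of the family's level per kilobase of exon within each library. Among Lgl genes, Llgl2 made up 20.5%, 30.7% and 28.8% of the sum of Llgl1 and Llgl2 in shCTL and 52.1%, 60.3% and 59.2% in shCdGAP. Llgl2 was thus the smaller part in every control and the larger part in every knockdown library, while Llgl1 itself was not called (95.7 ± 15.3 to 85.5 ± 24.8 CPM, n = 3, edgeR adjusted p = 0.664). Among Par6 genes, Pard6g made up 12.4%, 9.23% and 8.05% in shCTL and 4.01%, 1.91% and 1.36% in shCdGAP, with no overlap. The summed Par6 level was 16.5, 15.6 and 12.3 CPM per kilobase in shCTL and 13.8, 15.9 and 13.9 in shCdGAP, which overlapped. Among atypical PKCs, Prkcz made up 6.51%, 8.19% and 7.43% in shCTL and 13.8%, 7.40% and 7.43% in shCdGAP. That share was higher in shCdGAP replicate 1 alone, and the difference of 2.18 percentage points between group means was 0.037 without it. The exact two-sided permutation test over libraries gave p = 0.10 for the Llgl2 share, 0.10 for the Pard6g share and 0.60 for the Prkcz share, and 0.10 is the smallest p that 3 against 3 libraries allow. Benjamini-Hochberg adjustment over these 3 shares gave exact p = 0.15, 0.15 and 0.60.

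**Figure D3:**
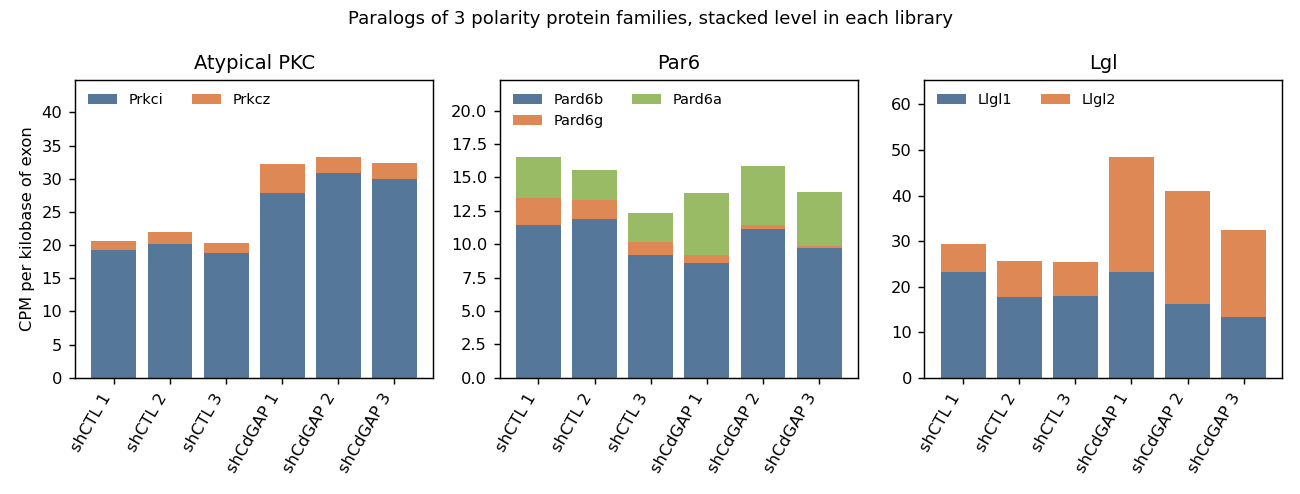
Stacked level per kilobase of exon (y axis, CPM per kilobase from 0) of the atypical PKC, Par6 and Lgl genes in each of the 6 libraries. The Llgl2 part grows from 20.5% to 30.7% of the Lgl bar in shCTL to 52.1% to 60.3% in shCdGAP, the Pard6g part shrinks, and Prkci makes up most of each atypical PKC bar.

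Levels per kilobase placed the 10 genes over a wide range. The length used is that of all annotated exons of a gene, and the transcripts expressed here may be shorter, which would change the order. In shCTL, Scrib was highest (33.8 ± 1.76 CPM per kilobase, SD, n = 3), followed by Prkci (19.4 ± 0.704), Dlg1 (16.2 ± 0.537), Pard6b (10.8 ± 1.43), Llgl2 (7.06 ± 0.945) and Pard3 (4.57 ± 0.190). Prkcz (1.55 ± 0.232), Pard6g (1.49 ± 0.532), Patj (0.693 ± 0.116) and Crb3 (0.378 ± 0.191) closed the order. Only Prkcz and Pard6g overlapped among neighbours in this order. In shCdGAP, Scrib (29.7 ± 5.87) and Prkci (29.5 ± 1.56) overlapped at the top, and Llgl2 (23.1 ± 3.34) came next, above Dlg1 (15.5 ± 3.02). Crb3 (3.90 ± 0.973) overlapped its neighbours Pard3 (4.54 ± 0.939) and Prkcz (3.11 ± 1.17), and Prkcz overlapped Patj (3.03 ± 0.824). Pard6g was last there (0.349 ± 0.187). Of the 2 Crumbs complex genes at the foot of the order in controls, Crb3 reached the range of Pard3 and Prkcz in the knockdown group. Patj reached the range of Prkcz, and its highest library lay just below the lowest of Pard3.

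Other genes of the 3 complexes were described from a list of 18 relatives, of which 13 were tested. Of these, 6 rose and 2 fell, with a median log2 fold change of 0.21, against 10.4% and 11.4% of all tested genes. The list overlaps in kind with the 10 genes, and counts are given as a description. Besides Crb2, Pard3b and Pard6a, the LAP protein gene Lrrc1, a relative of Scrib, rose from 26.4 ± 0.775 to 44.8 ± 5.64 CPM (edgeR adjusted p = 0.00858). Erbin, a LAP protein that binds ErbB2, rose from 148 ± 4.84 to 227 ± 35.8 CPM (edgeR adjusted p = 0.0211). Mpp7, a MAGUK that partners Dlg1, rose from 26.3 ± 1.22 to 44.9 ± 10.6 CPM (edgeR adjusted p = 0.0280). Mpdz and Dlg3 fell. Dlg3, a Dlg1 paralog, had 79 fragments over the controls and 1 over the knockdown libraries, a ratio of 74.9 (exact 95% binomial interval 13.1 to 2996, counting error only). Lin7c (305 ± 14.6 to 254 ± 31.4 CPM) and Dlg5 (218 ± 8.11 to 171 ± 31.6 CPM) were not called, and Dlg5 passed as lower without shCdGAP replicate 1 (log2 fold change −0.50, adjusted p = 0.00216). Crb1, Lin7a, Lin7b, Dlg2 and Lrrc7 were too low to be tested. With 1 library left out, 2 to 7 relatives rose and 1 to 4 fell, while the shares of all tested genes ran from 3.95% to 19.9% and from 6.28% to 21.9%. The calls of Erbin, Mpp7 and Lrrc1 were lost in 4, 4 and 1 of the 12 alternatives. The Lrrc1 value was lost without shCTL replicate 3 (adjusted p = 0.0513), and those of Erbin and Mpp7 without any shCTL library or shCdGAP replicate 2 (adjusted p up to 0.0968 and 0.116).

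Of 24 tested GTPases, exchange factors, kinases and adaptors that act on the complexes, 4 rose (16.7%) and 0 fell in the edgeR test, against 10.4% and 11.4% of all tested genes. Their median log2 fold change was 0.08. Lower values had an unadjusted p under 0.05 for 2 of them, and DESeq2 also called 0 lower. Mark1, the 1 listed regulator too low to be tested, had 29 fragments in shCTL and 6 in shCdGAP, and its groups did not overlap. Cdc42, the GTPase that Par6 binds, was at 355, 364 and 351 CPM in shCTL and at 354, 360 and 380 CPM in shCdGAP, and the groups overlapped (log2 fold change 0.03 ± 0.0869). Rac1 overlapped as well (423 ± 40.1 and 460 ± 39.0 CPM, n = 3, edgeR adjusted p = 0.513). The risen genes were Arhgef18, whose product acts at epithelial junctions (51.1 ± 2.38 to 85.5 ± 4.98 CPM, edgeR adjusted p = 0.00382), and Wwc1, whose product KIBRA binds atypical PKC (185 ± 8.10 to 306 ± 42.9 CPM, edgeR adjusted p = 0.0103). Amot, whose product binds Patj (25.0, 23.3 and 20.6 CPM to 52.5, 43.3 and 32.4 CPM, edgeR adjusted p = 0.0223), and Mark2, the Par1 kinase of the basolateral side (122 ± 4.32 to 168 ± 13.6 CPM, edgeR adjusted p = 0.0224), also rose. Rhoa (327 ± 5.08 to 400 ± 10.5 CPM, n = 3, edgeR adjusted p = 0.0544) and Sqstm1 (594 ± 115 to 385 ± 240 CPM, n = 3, log2 fold change −0.63, edgeR adjusted p = 0.341) did not pass. Without shCdGAP replicate 1 both passed, Rhoa as higher (0.29, adjusted p = 0.0176) and Sqstm1 as lower (−1.26, adjusted p = 0.000504), and DESeq2 on all 6 libraries also called Rhoa (adjusted p = 0.00111). Of the 4 calls only that of Arhgef18 held with each library left out, and the count of risen regulators then ran from 1 to 7. Without shCTL replicate 1 or 2, 1 rose, where 5.74% or 3.95% of all tested genes rose. Without shCdGAP replicate 1, 7 rose and 3 fell, where the shares of all genes were 19.9% and 21.9%.

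Of 11 tested genes of the apical membrane and its traffic, 5 rose and 1 fell, against 10.4% and 11.4% of all tested genes, with a median log2 fold change of 0.34. Muc1, a mucin of the apical surface, rose from 7.84, 8.08 and 8.24 CPM to 78.5, 41.5 and 55.9 CPM (log2 fold change 2.86 ± 0.25, edgeR adjusted p = 0.000868). Sytl2, which helps deliver apical vesicles, rose from 15.7 ± 3.10 to 40.2 ± 8.01 CPM (edgeR adjusted p = 0.00688). Sytl4 of the same family also rose (edgeR adjusted p = 0.00226). It had 2 fragments in shCTL and 47 in shCdGAP, a ratio of 24.8 (exact 95% binomial interval 6.49 to 211, counting error only). The traffic GTPase genes Rab11a (157 ± 10.3 to 294 ± 39.3 CPM, edgeR adjusted p = 0.00446) and Rab8a (69.7 ± 4.56 to 96.6 ± 5.73 CPM, edgeR adjusted p = 0.0216) rose. Anxa2, an annexin of the apical membrane, fell 2.01-fold (edgeR adjusted p = 0.0100). Ezr, Slc9a3r1, Podxl and Myo5b were not called, with edgeR adjusted p from 0.106 to 0.643. Calls were lost for Rab8a without any library other than shCdGAP replicate 1 (adjusted p up to 0.0959) and for Anxa2 without shCTL replicate 1 (adjusted p = 0.0517).

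**Figure D4:**
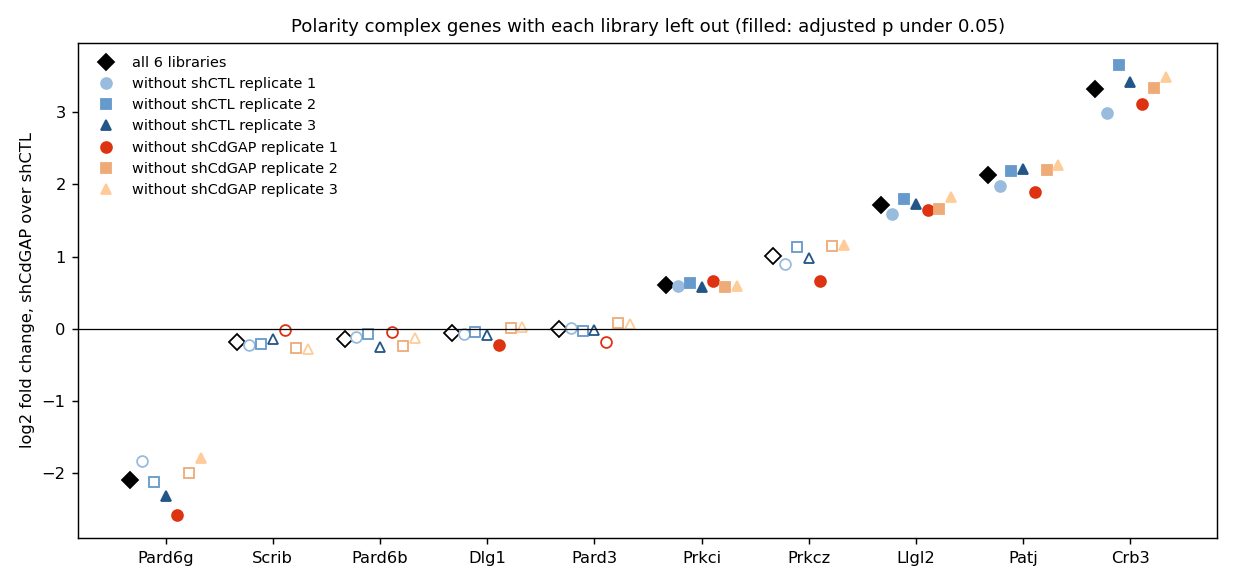
Log2 fold change of shCdGAP over shCTL (y axis) for each polarity gene with all 6 libraries (diamonds) and with each library left out, with filled symbols where the adjusted p was under 0.05. Crb3, Patj, Llgl2 and Prkci are filled throughout, Pard6g and Prkcz are filled in part, and Dlg1 is filled only without shCdGAP replicate 1.

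The calls of Crb3, Patj, Llgl2 and Prkci held with each library left out, with log2 fold changes of 2.98 to 3.65, 1.89 to 2.27, 1.59 to 1.83 and 0.58 to 0.66. Prkcz passed without shCdGAP replicate 1 (adjusted p = 0.00917) or 3 (adjusted p = 0.0484) and not without any other library. The direction of Crb3, Patj, Llgl2, Prkci, Prkcz and Pard6g was the same each time. Pard3 and Dlg1 changed sign around 0, with values from −0.18 to 0.085 and from −0.22 to 0.023.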

How the data were processed

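RNA was sequenced from 6 libraries. Total RNA was extracted with TRIZOL and RNeasy columns per the labels' protocols. The submitters' processing notes name CASAVA 1.8, Trimmomatic 0.30, TopHat2 2.0.14, Cuffdiff 2.2.1, DESeq and build GRCm38. The deposited values are raw fragment counts per gene, made per the file headers with featureCounts 1.4.6 on TopHat alignments and Ensembl release 77, counting read pairs on the reverse strand (setting 2). No exon of the 10 genes overlaps an exon of another gene there. GENCODE M21 (GRCm38) gave symbols for 40254 of 41214 genes and the coordinates.

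Genes were kept by filterByExpr (minimum count 10, total 15), scaled by TMM and tested with edgeR 4.0.16 (R 4.3.3, quasi-likelihood F test), with Benjamini-Hochberg adjustment over 13483 genes and calls at adjusted p under 0.05. The SE is the absolute log2 fold change over the square root of F. Alternatives used DESeq2 1.42.0, its size factors, other filters, the replicate block and each library left out. One fragment was worth 0.0373 to 0.0521 CPM before scaling. The fit was also run on simulated data. These held no outlying library and no joint deviation of same-numbered libraries, so that run does not cover either. Libraries of a group differed by more than sampling noise (chi-square per degree of freedom of at least 3). The largest value was 194, between shCdGAP replicates 1 and 3. Each library was treated as 1 replicate, although such differences do not show separate cultures. Same-numbered libraries of the 2 groups deviated together (r = 0.355, 0.289 and 0.246), which pairs them by the data alone, and the main fit leaves this out. The libraries numbered 1 stood apart, while numbers 2 and 3 were not told apart (shCTL 3 with shCdGAP 2, r = 0.254, and shCTL 2 with shCdGAP 3, r = 0.186). The named genes were the 10, Arhgap31, and of each other list up to 8 called genes by adjusted p and up to 4 of the most abundant uncalled. Dlg4, Ect2, the epithelial markers with values and the promoter motif were added after values were seen. The members and lists were chosen with earlier results of these data known.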

Additional observations from a re-analysis of the deposited data

How the results depend on the processing

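The calls of Crb3, Patj, Llgl2 and Prkci kept their direction and stayed called under every alternative that tested them. A mean of at least 10 CPM left Crb3 and Pard6g untested, and then 3 polarity genes rose and 0 fell. With each library left out, 4 to 5 polarity genes rose and 0 to 2 fell, 2 to 7 relatives rose and 1 to 4 fell, 1 to 7 regulators rose and 0 to 3 fell, and 4 to 5 apical genes rose and 0 to 1 fell. The shares of all tested genes then ran from 3.95% to 19.9% risen and from 6.28% to 21.9% fallen. Without both libraries numbered 1, chosen after seeing the data, 2 polarity genes and 5 relatives fell, and 7 regulators rose and 3 fell, where 25.5% of all tested genes rose and 26.7% fell. The 10 CPM filter left Dlg3 untested, so 1 fallen relative, Mpdz, remained. With no filter 1 regulator fell, and the regulator Mark1, too low for the main filter, was then included. The cause of the other changes in count was not tested. Prkcz passed with DESeq2 (adjusted p = 0.00624), with its size factors in edgeR (0.0456) and with no filter (0.0359). Values with a library left out crossed 0 for Pard3 (−0.18 to 0.085), Dlg1 (−0.22 to 0.023) and Llgl1 (−0.40 to 0.0070), and of these only the −0.22 of Dlg1 was called.

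With the replicate number as a block, 4 polarity genes rose and 1 fell, 6 relatives rose and 3 fell, 4 regulators rose and 0 fell, and 5 apical genes rose and 1 fell. The block changed the call of Dlg4 alone among the named genes (−0.89, adjusted p = 0.0396), and Prkcz stayed uncalled (0.95, adjusted p = 0.0938). The paired shares differed by 30.5, −7.47 and 2.18 percentage points for Llgl2, Pard6g and Prkcz (exact sign-flip p = 0.25, 0.25 and 1). The smallest p that 3 pairs allow is 0.25, so the sign-flip test could not have called any share. Depth limits Crb3 in shCTL (5 to 23 fragments) and Pard6g in shCdGAP (15 to 39).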

Other observations

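Ect2, which encodes an exchange factor that binds the Par6 and PKC iota complex and also serves cell division, was at 199, 244 and 237 CPM in shCTL and at 30.2, 352 and 356 CPM in shCdGAP. The low value belongs to shCdGAP replicate 1, the library with the lowest Arhgap31. The same library had the highest Patj, Prkcz, Crb3, Llgl2, Pard3 and Dlg1 of the 6. It also had the lowest Scrib, Pard6b and Podxl (Podxl 51.3 CPM against 105 and 133 CPM in its replicates). Its Prkci, at 148 CPM against 164 and 160 CPM, was the least raised of the knockdown libraries. Its Pard6g, at 1.74 CPM against 0.952 and 0.595 CPM, was the least lowered. Ect2 was picked for its spread after its values were seen.

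Dlg4, a Dlg1 paralog, was at 47.0, 32.6 and 34.4 CPM in shCTL and at 31.6, 19.4 and 13.6 CPM in shCdGAP. Its log2 fold change of −0.82 ± 0.325 did not pass in edgeR (adjusted p = 0.127), whereas the fit with replicate numbers as a block called it (−0.89, adjusted p = 0.0396) as did the fit without shCdGAP replicate 1 (−1.19, adjusted p = 0.00274).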
